A study of Mus musculus with 267 samples.

Results

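H3K4me2 after 24 h of IL-4 was compared with basal H3K4me2 in bone marrow-derived macrophages (BMDMs) of 5 inbred mouse strains. The members are the 20 H3K4me2 chromatin immunoprecipitation (ChIP-seq) libraries of the strain tables among 267 samples in all, 2 basal and 2 IL-4 libraries per strain. The strains, with the short names used here, are C57BL/6J (C57), PWK/PhJ (PWK), BALB/cJ (BALB), SPRET/EiJ (SPRET), which is derived from Mus spretus, and NOD/ShiLtJ (NOD). Marrow of young adult female mice was differentiated in M-CSF for 7 days, and the macrophages were left untreated or given 20 ng/mL of recombinant mouse IL-4 for 24 h. The labels give no further allele or agent in any of these groups, and they call the libraries biological replicates without tying them to animals. The deposited tables held 67742 regions for C57, 54022 for BALB, 68932 for NOD, 60175 for PWK and 54755 for SPRET, each 1000 bp wide and centred on a site of open chromatin. Of these, 29462 regions were matched in all 5 strains, with centres within 500 bp of each other.

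H3K4me2 is dimethylated lysine on the tail of histone H3. It marks both promoters and enhancers, and its gain at a distal site is commonly read as the priming of an enhancer. H3K27ac marks active promoters and enhancers, H3K4me3 marks mainly promoters, and RNA polymerase II (Pol II) is found at sites of transcription. IL-4 binds a receptor that activates JAK kinases, which phosphorylate the transcription factor STAT6. Phosphorylated STAT6 enters the nucleus, binds sites with the core letters TTC and GAA, and turns on the genes of alternative macrophage activation. PU.1 and C/EBPβ are lineage factors of macrophages, EGR2 and PPARγ are factors of the later IL-4 response, and the SOCS family, including CISH, inhibits JAK-STAT signalling.

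All values are normalized tags, that is, sequence tags in the region after each library was scaled to 10000000 tags. Library depth was 10629781 to 15744957 tags, and the median matched region held 33.0 to 103 reads per library, which sets the counting error of a single value. The libraries differed in how much of their signal lay in the regions. Basal libraries had 25.2 to 37.5% of their tags there (median 33.7%, n = 10), and IL-4 libraries had 14.9 to 33.4% (median 24.8%, n = 10). In 4 of 5 strains, all but PWK, both IL-4 libraries lay below both basal libraries in that share. Whether this reflects less of the mark or a less efficient immunoprecipitation cannot be told apart. The counts over all regions are therefore given with scaling to library totals and with median-ratio scaling, in which each library is scaled so that its typical region is at the level of the other libraries. Changes of single regions are with library totals where no scaling is named. Starts of all 10 macrophage marker genes, such as Csf1r and Adgre1, carried a region within 1000 bp in every strain. Their H3K4me2 summed to 665 to 1136 tags in basal and 430 to 934 in IL-4 libraries. Of the T cell list, 1 to 2 of 5 genes had a region at their start. Cd3d had one in every strain, and Cd3e, Cd3g and Lck had none in any strain. Of the B cell list 1 to 2 of 5 had one, of the granulocyte list 1 to 3 of 6, of the erythroid and fibroblast lists 0 to 2 of 5 each, and of the mast cell and basophil list 0 to 1 of 5. Levels at these starts were not all below those of macrophage starts. In BALB basal libraries the Cd3d region held 109 and 98.55 tags, against a mean of 94.6 and 110 per macrophage region. The 1 erythroid region there held 100 and 153, the 1 granulocyte region 73.9 and 103, and the 1 B cell region 16.9 and 22.2. In bulk chromatin, fewer cells carrying a mark and less of the mark per cell cannot be told apart.

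The question asked first was which regions changed in the 5 strains together. With library totals, H3K4me2 rose at 519 of the 29462 matched regions (1.76%) and fell at 21262 (72.2%), by limma on the mean of the 5 within-strain changes at an adjusted p under 0.05. The median region changed by −0.53 on the log2 scale with library totals and by −0.017 with median-ratio scaling, under which 1541 regions rose (5.23%) and 272 fell (0.923%). Rises thus made up 2.38% of the calls with library totals, 85% with median-ratio scaling and 82% after quantile normalization. The count of falls therefore turned on the scaling, while 506 of the 519 rises were also called under median-ratio scaling and 365 after quantile normalization. In what follows, a region that rose is one of the 519, and a region that fell is one of the 272 called lower under both scalings (0.923% of the matched regions). Of these 272 falls, 128 were also called lower after quantile normalization. In this fit limma gave every region of a given level the same spread, pooled over the regions.

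The regions that rose were weakly marked before IL-4. Their median level went from 14.2 normalized tags in basal to 24.4 after IL-4, against 62.2 and 44.3 over all matched regions. The regions that fell went from 95.4 to 51.5 tags. The median log2 change of the rises was +0.72, with a range of 0.39 to 2.86, and +1.19 with median-ratio scaling. At least 2-fold rises numbered 115 with library totals and 449 with median-ratio scaling. The falls had a median log2 change of −0.90 with library totals and −0.39 with median-ratio scaling, and 49 and 1 of them were at least 2-fold. Ordered by level, 300 of the 519 rises were among the 2947 regions of lowest level, between 1.68 and 21.4 tags on average, where the median region changed by −0.11 with library totals and by +0.36 with median-ratio scaling. Among these low regions, 77.3% of the 300 rises and 10.4% of the other 2647 regions were called higher in H3K27ac, a mark measured in other libraries.

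The 10 leading rises in nuclear DNA lay more than 1000 bp from a coding gene start. Sequence was read for 9 of them, all but the exonic Mink1 region, and 5 of the 9 held a STAT6 motif. The regions of Socs1, Gtf2i, St8sia1 and Hectd4 held a STAT motif of neither spacing. Shown are 4 regions with a motif and, for contrast, the Socs1 region without one. The sequences are 300 bp of mm10 around the centre of the region, on the forward strand and read 5′ to 3′. Capitals mark matches to TTCNNNNGAA, the spacing that STAT6 prefers, or to TTCNNNGAA, the spacing of other STAT dimers. The Anks1 region is in an intron of Anks1, at chr17:27968068-27968367, and holds a pair of STAT6 motifs. The Cish region is intergenic, at chr9:107307955-107308254, and holds 1 motif of each spacing. The Plcg2 region is in an intron of Cmip, at chr8:117447232-117447531. The Nbas region is in an intron of Nbas, at chr12:13410197-13410496. The Socs1 region is intergenic, at chr16:10781071-10781370.
Anks1: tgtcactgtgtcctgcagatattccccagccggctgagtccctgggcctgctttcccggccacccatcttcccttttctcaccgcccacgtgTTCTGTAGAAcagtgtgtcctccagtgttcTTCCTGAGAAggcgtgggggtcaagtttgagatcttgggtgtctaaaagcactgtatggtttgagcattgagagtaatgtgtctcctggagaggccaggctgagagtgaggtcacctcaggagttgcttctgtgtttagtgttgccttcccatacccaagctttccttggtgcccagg
Cish: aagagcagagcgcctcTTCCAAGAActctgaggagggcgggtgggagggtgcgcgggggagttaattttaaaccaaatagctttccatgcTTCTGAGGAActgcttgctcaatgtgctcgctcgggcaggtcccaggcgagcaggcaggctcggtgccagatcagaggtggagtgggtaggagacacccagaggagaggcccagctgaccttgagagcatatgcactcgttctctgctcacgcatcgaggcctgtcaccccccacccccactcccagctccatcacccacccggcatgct
Plcg2: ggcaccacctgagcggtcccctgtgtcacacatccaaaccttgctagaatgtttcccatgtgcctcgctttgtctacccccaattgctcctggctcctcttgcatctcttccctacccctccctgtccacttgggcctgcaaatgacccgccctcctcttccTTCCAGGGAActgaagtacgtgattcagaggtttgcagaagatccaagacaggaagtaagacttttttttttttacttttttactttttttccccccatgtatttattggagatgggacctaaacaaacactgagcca
Nbas: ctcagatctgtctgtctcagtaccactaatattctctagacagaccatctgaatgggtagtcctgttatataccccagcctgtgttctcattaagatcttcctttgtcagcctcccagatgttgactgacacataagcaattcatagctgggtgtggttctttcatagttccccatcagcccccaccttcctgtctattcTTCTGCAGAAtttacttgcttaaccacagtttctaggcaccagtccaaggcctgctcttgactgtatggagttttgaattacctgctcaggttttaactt
Socs1: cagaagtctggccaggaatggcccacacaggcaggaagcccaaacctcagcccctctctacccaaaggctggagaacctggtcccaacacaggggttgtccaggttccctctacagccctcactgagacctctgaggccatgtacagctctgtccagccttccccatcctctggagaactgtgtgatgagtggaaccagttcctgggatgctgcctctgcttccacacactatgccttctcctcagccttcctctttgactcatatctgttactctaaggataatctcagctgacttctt

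The largest rise was in Anks1, which encodes an ankyrin-repeat adaptor of receptor tyrosine kinase signalling. The region lies 39.1 kb upstream of the nearest annotated start and inside the gene. In C57 its 2 basal libraries held 4.08 and 7.04 normalized tags and its 2 IL-4 libraries 63.5 and 35.9. BALB went from 3.21 and 7.18 to 62.8 and 22.5, and NOD from 0.91 and 10.4 to 47.8 and 60.3. PWK went from 2.76 and 9.66 to 77.6 and 75.2, and SPRET from 7.28 and 20.2 to 29.5 and 43.3. Every IL-4 library lay above every basal library of its own strain. The mean log2 change was 2.86 ± 0.22 (SE), limma adjusted p = 1.19e-34, and ran from 1.47 in SPRET to 3.61 in PWK. With median-ratio scaling the mean change was 3.34, limma adjusted p = 2.02e-09. At this region H3K27ac rose by 4.65 ± 0.25 on the log2 scale, and Pol II by 1.26 ± 0.21. STAT6 peaks overlapped it in 0 of 5 strains in basal and in 5 of 5 after IL-4, and PU.1 peaks likewise in 0 and 5.

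The leading rises included regions of 2 JAK-STAT inhibitors. The leading region of Cish, whose product is a feedback inhibitor of cytokine signalling, lies 11.2 kb downstream of its start. C57 went from 2.45 and 2.11 tags to 31.7 and 31.5, BALB from 1.61 and 0 to 32.4 and 17.6, and NOD from 5.45 and 3.48 to 30.6 and 17.8. PWK went from 8.27 and 4.83 to 49.6 and 38.4, and SPRET from 14.6 and 6.72 to 28.6 and 21.6. The groups did not overlap in any strain, and the change was smallest in SPRET. The mean log2 change was 2.66 ± 0.24 (SE), limma adjusted p = 4.43e-24. With median-ratio scaling it was 3.08, limma adjusted p = 2.11e-09. The Pol II change there was 3.67 ± 0.28. A second Cish region, at 6.33 kb, rose by 2.44. The leading region of Socs1, an inhibitor of JAK kinases, lies 4.32 kb downstream of the start. It went from 1.61 to 7.27 tags in basal libraries (median 3.74, n = 10) to 11.2 to 32.2 with IL-4 (median 19.5, n = 10), and it was separated in every strain. Its log2 change was 2.11 ± 0.26 (limma adjusted p = 5.45e-13), or 2.55 by median ratios (limma adjusted p = 2.35e-07). The Pol II change at this Socs1 region was 4.83 ± 0.28.

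Of the other nuclear leading rises, the Plcg2 region is nearest to the gene of a phospholipase C of immune receptor signalling, 50.9 kb away. Its 2.37 ± 0.28 (SE) rise on the log2 scale was separated in 4 of 5 strains. In BALB its IL-4 values of 16.9 and 4.81 tags overlapped the basal values of 5.62 and 1.96. Mink1, a kinase of the Ste20 family, held an exonic region that rose by 2.21 ± 0.29, from at most 6.43 tags in basal to 4.89 to 26.2 with IL-4. The region of Nbas, a protein of Golgi-to-ER transport, rose by 1.99 ± 0.21 with H3K27ac at 5.40 ± 0.30. Gtf2i, a general transcription factor gene, rose by 1.99 ± 0.23, St8sia1, the ganglioside GD3 synthase, by 1.96 ± 0.24, and Hectd4, a HECT-domain ubiquitin ligase, by 1.92 ± 0.27. A region 35.6 kb from the start of Hnrnpll, a regulator of alternative splicing, rose by 2.01 ± 0.29. In SPRET that region went from 3.23 and 2.52 to 5.54 and 2.82 tags, so the groups overlapped there, as they did in SPRET for Gtf2i and St8sia1. These 7 regions had limma adjusted p values between 5.50e-17 (Nbas) and 2.01e-09 (Hnrnpll), and all kept their call under median-ratio scaling, with changes of 2.36 to 2.76, and under quantile normalization. In these 10 nuclear regions the smallest strain change was SPRET's in 9, and BALB's in Plcg2.

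**Figure D1:**
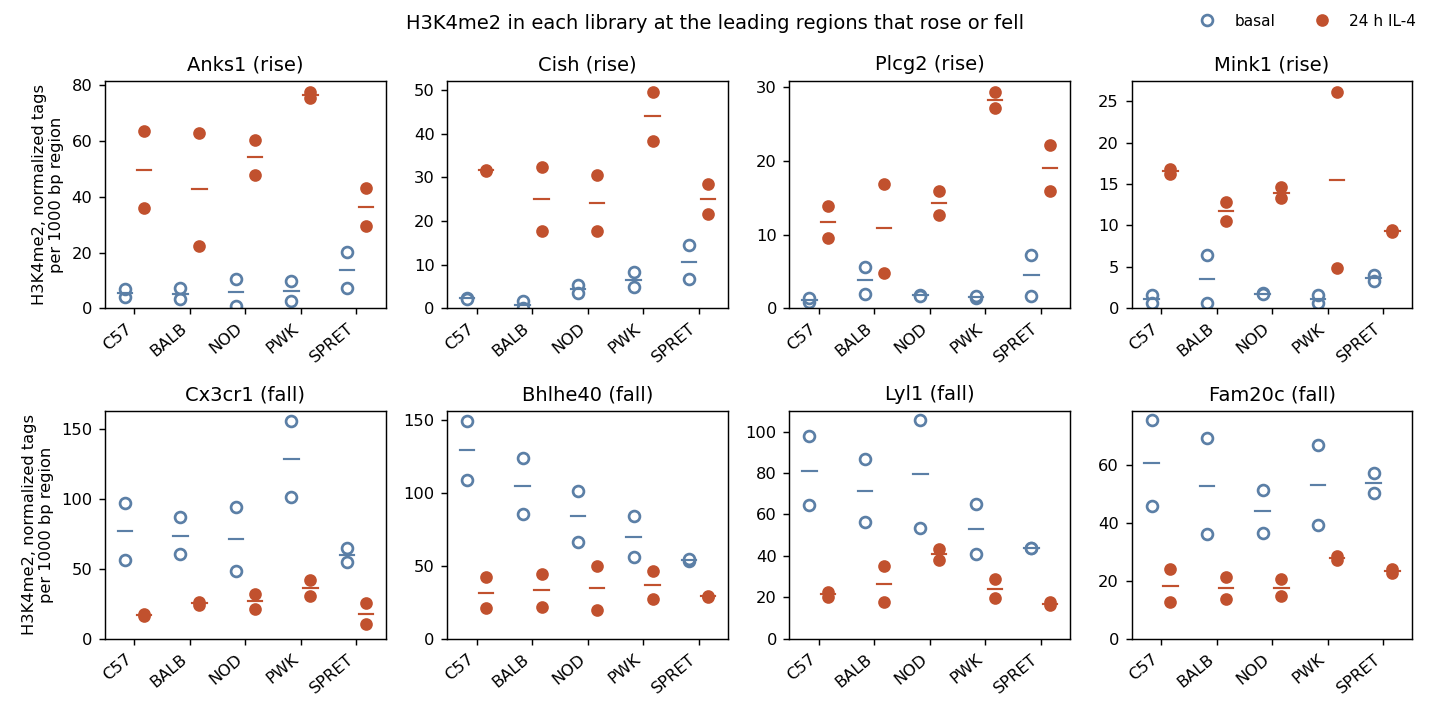
Normalized H3K4me2 tags in each library (vertical axis) for the 4 leading nuclear rises and the 4 leading falls, by strain. Open circles are basal and filled circles 24 h IL-4 libraries (2 each), and short lines are means. For Anks1 every IL-4 library exceeds both basal libraries of its strain, and for Cx3cr1 every IL-4 library is below them.

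The rule for the leading rises also took in regions of mitochondrial DNA near mt-Nd1 and mt-Nd5, genes of respiratory complex I. Mitochondrial DNA is not wound on histones. The 5 matched mitochondrial regions were all among the rises, with changes of 2.14 for mt-Nd1 and 2.06 for mt-Nd5. Their libraries overlapped between conditions in 3 and 4 of 5 strains, with basal values of 3.52 to 680 tags for mt-Nd1. With an empirical Bayes fit robust to outlying spreads, 0 of the 5 were called (adjusted p of 0.0992 to 0.162), and 507 regions rose, 503 of them among the 519. Without the mitochondrial regions, 514 rises were left.

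The regions that fell lay near gene starts about as often as matched regions as a whole, 38.6% against 35.3% within 1000 bp. The largest fall was at the start of Cx3cr1, the fractalkine receptor of monocytes and resident macrophages. In C57 it went from 56.4 and 97.1 to 16.3 and 17.6 tags, in BALB from 60.2 and 86.8 to 24.0 and 26.5, and in NOD from 48.2 and 94.0 to 21.3 and 31.8. PWK went from 101 and 155 to 41.9 and 30.2, and SPRET from 55.0 and 64.7 to 10.2 and 25.4. No IL-4 library reached a basal library of its strain. The log2 change was −1.70 ± 0.19 (SE) with library totals, limma adjusted p = 3.98e-16, and was −1.19 when scaled by median ratios (limma adjusted p = 3.55e-05). The log2 change there was −3.26 in H3K27ac, −2.95 in H3K4me3 and −3.32 in Pol II, each past the limma threshold.

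At the starts of 4 other genes among the leading falls, H3K4me2 fell while Pol II rose. Klf4, a zinc-finger factor of alternative activation, had a region 287 bp from its start that went from 82.7 to 237 tags in basal (median 159, n = 10) to 41.7 to 102 with IL-4 (median 64.9, n = 10). Its H3K4me2 change was −1.25 ± 0.18 (SE; limma adjusted p = 1.84e-09), or −0.73 when scaled by median ratios, and that of H3K27ac was +1.54 ± 0.19, of H3K4me3 +0.51 ± 0.11 and of Pol II +1.37 ± 0.19. The start of Bhlhe40, a basic helix-loop-helix repressor, had an H3K4me2 change of −1.38 ± 0.18 (−0.87 with median-ratio scaling) and a Pol II change of +1.00 ± 0.18. The start region of Hnrnpll had −1.24 ± 0.19 in H3K4me2 (−0.73 by median ratios) and +1.96 ± 0.22 in Pol II, opposite to its own distal region. Fam20c, a kinase of secreted proteins, had −1.30 ± 0.19 in H3K4me2 (−0.79 by median ratios) and +0.56 ± 0.19 in Pol II. The remaining leading falls did not carry a rise in Pol II. The region nearest to Lyl1, a haematopoietic factor gene, is in an exon of Nfix and had −1.32 ± 0.19 in H3K4me2 (−0.81 with median-ratio scaling) and −2.28 ± 0.22 in H3K27ac. Intronic regions of Pip4k2b, a phosphoinositide kinase, and Asb2, a substrate adaptor of a ubiquitin ligase, had −1.23 ± 0.19 and −1.19 ± 0.22, or −0.72 and −0.70 with median-ratio scaling. All 8 leading falls had non-overlapping groups in every strain, as did 203 of the 272 falls and 7.22% of all matched regions. Of the 519 rises, 37 were separated in every strain, and these were the only matched regions so separated upwards (0.126%).

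**Figure D2:**
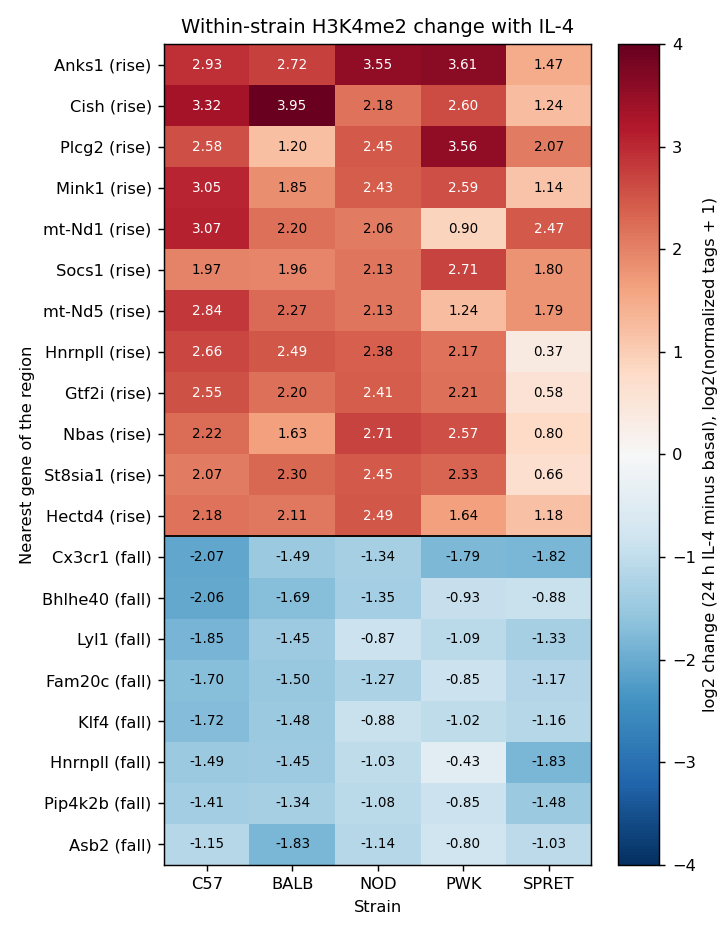
Log2 change of H3K4me2 (24 h IL-4 minus basal, library totals, 2 libraries per condition) in each strain for the 12 leading rises and 8 leading falls. Colours give the sign and size, and the numbers in the cells are the changes. All 20 regions have 1 sign in all 5 strains, which their choice required, and the Anks1 region ranges from 1.47 in SPRET to 3.61 in PWK.

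The pattern of opposite changes at distal regions and at starts was seen at several genes of the IL-4 response (these genes were picked out after their values were seen). At Socs1, regions 4.32, 40.1 and 90.4 kb from the start rose by 2.11, 1.14 and 0.51, while the region at the start fell by 1.02 with library totals and by 0.50 with median-ratio scaling. At Klf4, a region 43 kb upstream rose by 1.28 ± 0.25 (SE), against the fall at the start. At Hnrnpll the distal region rose by 2.01, against a change of −1.24 at the start. Over the matched regions, 392 within 1000 bp of a coding gene start were called higher in Pol II, and of these H3K4me2 fell at 9.44% and rose at 3.83%. Of the 1818 regions elsewhere that were called higher in Pol II, H3K4me2 rose at 12.9% and fell at 1.43%. Over all matched regions 0.923% fell and 1.76% rose. Where Pol II was not called, H3K4me2 fell at 0.6% and rose at 0.155% of starts, and fell at 0.401% and rose at 1.63% elsewhere. The median change with median-ratio scaling was −0.085 at starts and +0.29 elsewhere where Pol II was higher. Without a Pol II call it was −0.067 and +0.038, so the median at starts hardly differed with the Pol II call. Among the 272 falls, 37 were gene starts called higher in Pol II, and their median H3K27ac change was +0.32.

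**Figure D3:**
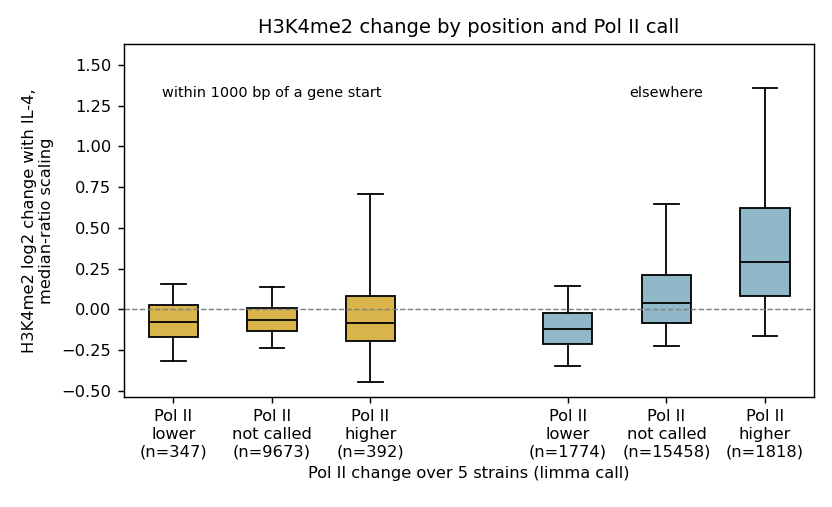
Change of H3K4me2 with IL-4 over 5 strains (log2, median-ratio scaling) for regions within 1000 bp of a coding gene start and elsewhere, split by the limma call of Pol II in other libraries. Boxes are quartiles with the median, and whiskers run from the 5th to the 95th percentile of regions, so they are not replicate error. Away from gene starts the median is +0.29 where Pol II was higher and −0.12 where it was lower, and at gene starts it is −0.085 and −0.075.

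Other marks, measured in other libraries of the same strains, moved at the regions that rose. H3K27ac was called higher at 438 of the 519 (84.4%), against 7.29% of all matched regions, and lower at none. H3K4me3 was higher at 216 (41.6%), against 3.98%, and Pol II at 250 (48.2%), against 7.5%. The median log2 changes at the rises were +1.52 in H3K27ac, +0.79 in H3K4me3 and +0.70 in Pol II. At the falls, H3K27ac was lower at 140 of 272 (51.5%), against 28.2% of all, and higher at 21 (7.72%), near the 7.29% of all. H3K4me3 was lower at 84 (30.9%), against 10% of all. Pol II went both ways there, being higher at 63 (23.2%) and lower at 89 (32.7%), against 7.5% and 7.2% of all matched regions. With median-ratio scaling the share of rises called higher in H3K27ac was 88.4%, against 14% of all regions. Of the falls, H3K27ac was then lower at 43.4%, against 13.1% of all, and higher at 19.9%, against 14%.

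By position, most rises were away from gene starts. In the class the authors assigned, 89.6% of the rises, 65.8% of the falls and 65.4% of all matched regions were intronic or intergenic. Centres within 1000 bp of a coding gene start made up 5.78% of the rises, 38.6% of the falls and 35.3% of all, and 65.9%, 26.8% and 41.3% were over 10 kb from one. The 519 rises were nearest to 464 genes, so most genes held 1. Inpp5a, which encodes a phosphatase of inositol phosphates, had the most (5 of its 12 matched regions, +0.51 to +0.85). Itpk1, a kinase of the same pathway, followed with 4 of 7 (+0.49 to +1.10). Among the falls, Bhlhe40 had 4 of 13 and Asb2 3 of 3. These 4 genes were named after their counts were seen.

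STAT6 peaks appeared at the regions that rose. The peak lists were made from factor ChIP-seq in each strain, and a STAT6 peak that was present after IL-4 and not in basal cells overlapped 36.6 to 63% of the rises over the 5 strains, against 10.3 to 24.3% of the falls and 9.28 to 26.7% of all matched regions. In basal cells the order was the other way, with STAT6 peaks at 5.97 to 26.6% of the rises, 34.2 to 75% of the falls and 26.6 to 60.2% of all. After IL-4 they lay at 42.2 to 75% of the rises, 41.5 to 72.4% of the falls and 33.9 to 65.4% of all. The rises and the falls thus differed mainly in their basal STAT6 peaks, and little in those after IL-4. They also differed in H3K4me2 level, and basal peaks were not compared at like levels. Among the 2947 regions of lowest level, a gained STAT6 peak overlapped 27.7 to 58% of the 300 rises. It overlapped 7.86 to 26.3% of the other 2647 low regions. A STAT6 peak was gained in all 5 strains at 73 rises (14.1%) and at 0.652% of all matched regions. PU.1 peaks lay at 41.4 to 60.7% of the rises in basal cells and at 70.9 to 80.5% after IL-4, whereas over all regions both ranges stayed between 78.8 and 87.9%. EGR2 peaks after IL-4 lay at 41.6 to 68.8% of the rises and 31.3 to 55.4% of all. The lists differ in length between strains and conditions, from 6201 to 101317 peaks, and a longer list overlaps more of any set. Open chromatin called by ATAC-seq after IL-4 and not in basal cells covered 17.3 to 73.4% of the rises and 4.29 to 14.9% of all. Among the regions of lowest level it covered 20.3 to 81% of the rises and 5.89 to 30.4% of the others.

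**Figure D4:**
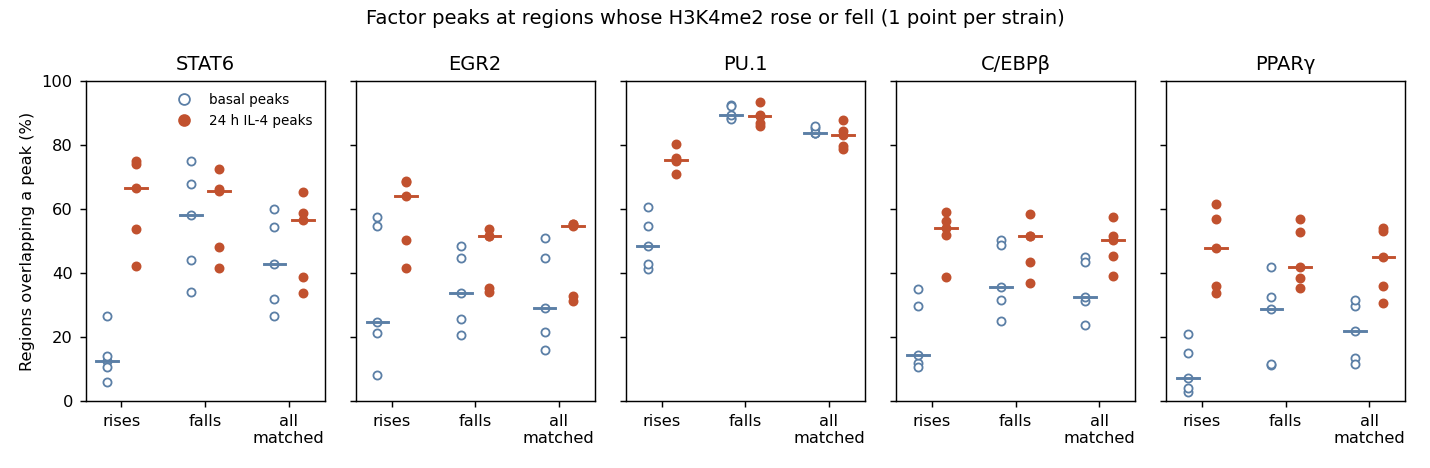
Share of regions (%, vertical axis) that overlap a factor peak, for the 519 rises, the 272 falls and all 29462 matched regions. Each point is 1 strain, open for basal and filled for 24 h IL-4 peak lists, and bars are medians over 5 strains. At the rises the median STAT6 share goes from 12.5% to 66.7%, at the falls from 58.1% to 65.8%, and over all regions from 42.9% to 56.6%.

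Sequence motifs were counted on both strands in the 201 bp around the centre of 29457 regions on nuclear chromosomes. Shares are of all 519 rises and all 29462 matched regions, with the 5 mitochondrial regions counted as without a motif. The STAT6 motif TTCNNNNGAA lay in 14.8% of the rises, 3.31% of the falls and 4.87% of all regions, and 5.37% of the regions with it rose against 1.58% of those without. Among the 2947 regions of lowest level it lay in 9% of the 300 rises and 3.7% of the others. The other STAT spacing, TTCNNNGAA, lay in 7.32% of the rises and 5.32% of all. The AP-1 motif TGANTCA lay in 23.1% and 16.1%, the EGR motif GCGTGGG in 4.43% and 3.6%, the C/EBP motif TTGCNNAA in 11.6% and 10.8%, and the PU.1 motif AGGAAGT in 18.5% and 21.6%. The GAA end of a STAT motif can share letters with a PU.1 motif. A match is a run of letters and not a measured site, and the STAT6 motif was found in 77 of the 519 rises.

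The agreement of direction over strains depended on the scaling. Among the 27732 regions with a mean of at least 16 tags, 290 (1.05%) changed upwards in all 5 strains with library totals and 20304 (73.2%) downwards. Median-ratio scaling gave 2891 (10.4%) upwards and 2818 (10.2%) downwards. The 519 rises were chosen on the mean over strains, and 359 of them had an upward change in each of the 5, or 498 with median-ratio scaling. The median change of the rises was smallest in SPRET, at 0.35, and lay between 0.79 (BALB) and 0.89 (PWK) in the others. With median-ratio scaling it was again smallest in SPRET, at 0.90, and largest in C57, at 1.59. The order among the strains was not tested over these members.

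**Figure D5:**
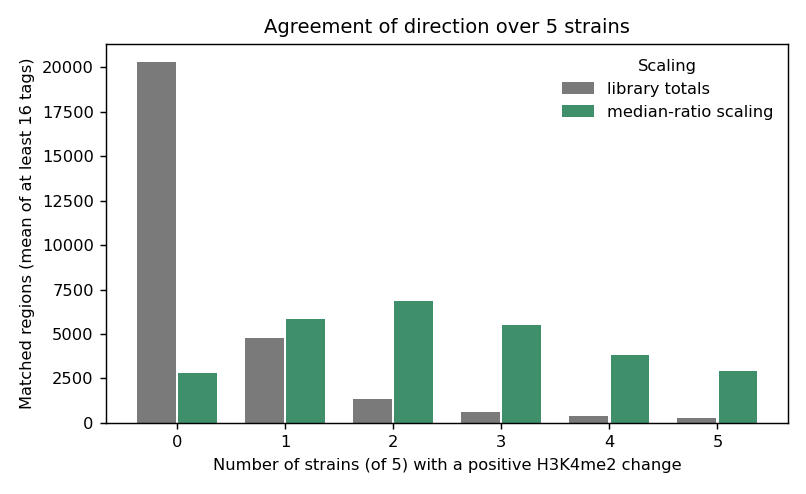
Number of matched regions (vertical axis, 27732 in all) by the number of strains in which the H3K4me2 change was above 0. Grey bars are library totals and green bars median-ratio scaling. With library totals 20304 regions are down in every strain, and with median-ratio scaling 2818 are down and 2891 up in every strain.

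A strain that took no part in the calling still showed the change. Rises were called again from 4 strains, and their direction was then read in the fifth. In C57, 359 of 383 (93.7%) were higher, against 6.88% of all matched regions. BALB had 88.2% of 492 against 7.32%, NOD 95.7% of 391 against 14.3%, and PWK 95.2% of 400 against 20%. The lowest share was in SPRET, 354 of 506 (70%) against 8.11%. With median-ratio scaling these shares were 95.3 to 99.5%, against 47.6 to 50.5% of all. That background is not matched for level, and the 2947 weakest regions had a median change of +0.36 with this scaling. Falls called under both scalings from 4 strains were lower in the fifth at 85 to 97.2% with median-ratio scaling, against 49.5 to 52.4% of all matched regions. The differences between strains were not called anywhere: the limma F test of the 5 within-strain changes passed at 0 regions (0%), with 172 regions (0.584%) at an unadjusted p under 0.05. The edgeR and DESeq2 fits also gave 0 calls, with 146 and 164 at an unadjusted p under 0.05. Without any strain difference, a fraction of about 0.05 of the regions would be at an unadjusted p under 0.05. Each fit gave far fewer, so these tests were too conservative to tell alike from different responses. With library totals, the limma spread includes general gaps between replicates. Between the BALB IL-4 libraries this gap was 0.93 on the log2 scale at the median region. With 2 libraries per condition as well, the 0 calls do not show that the strains respond alike.

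Within single strains the number of calls varied between tables. C57 had 121 rises (0.179% of its regions) and 39 falls (0.0576%). BALB had 6 rises (0.0111%) and 0 falls (0%), with 608 regions lower at an unadjusted p under 0.05 by limma. NOD had 115 rises (0.167%) and 15 falls (0.0218%), and PWK had 187 rises (0.311%) and 2 falls (0.00332%). SPRET had 0 rises and 0 falls by limma (0%), with 574 and 17177 at an unadjusted p under 0.05, and 4 calls each by edgeR and DESeq2. With libraries of the same replicate number taken as a block, SPRET had 536 rises and 16186 falls. The block also raised the number of calls in every other strain, but no label says what the number stands for. Median-ratio scaling gave C57 270 rises and 8 falls, BALB 172 and 3, NOD 23 and 0, PWK 17 and 0, and SPRET 0 and 0. With library totals the median region of the table was below 0 in every strain, from −0.18 for PWK to −0.69 for C57.

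Single libraries decided these within-strain counts. Without C57 IL-4 replicate 1 the calls in C57 went from 160 to 34948, without IL-4 replicate 2 to 0, and without basal replicates 1 and 2 to 53 and 96. In BALB, 6 calls became 28155 without IL-4 replicate 1, 30 without IL-4 replicate 2 and 25 without basal replicate 2. In NOD, 130 calls became 15289 and 377 without basal replicates 1 and 2, and 4 and 0 without IL-4 replicates 1 and 2. In PWK, 189 calls became 0 without either IL-4 replicate. In SPRET, 0 calls became 416 and 984 without IL-4 replicates 1 and 2, and 6543 and 63 without basal replicates 1 and 2. The libraries left alone are assumed in these fits to vary like the other condition. The within-strain counts are therefore not compared between strains.

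The rises called within a strain still had their direction elsewhere. With median-ratio scaling, the 56 to 85 C57 rises that could be matched in another strain changed upwards there in 97.2 to 100% of cases. NOD rises did so in 100% of 57 to 84. PWK rises did so in 98.8 to 100% of 80 to 111, and BALB rises in 75 to 100% of 4 to 6, against 39.9 to 48.4% of all regions. This background was not matched for level. STAT6 peaks after IL-4 overlapped 74.4% of the C57 rises, 67% of the NOD rises and 79.7% of the PWK rises, against 46.6, 28.1 and 49.8% of each table. The mitochondrial regions gave 10 of the C57 rises and 9 of those in NOD.

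The leading region of each strain was often absent from the matched set. In C57 a region in an intron of Mark1, nearest to C130074G19Rik, went from 0 and 0 to 23.2 and 8.78 tags (limma adjusted p = 1.04e-05), and no fold is given against a group at 0. In NOD a region 48.9 kb from Tmem17, a ciliary membrane protein gene, went from 1.82 and 0.87 to 31.2 and 27.3 (limma adjusted p = 7.64e-07). In PWK an intronic region of March10, a ubiquitin ligase gene, went from 1.38 and 1.61 to 54.5 and 51.5 (limma adjusted p = 1.96e-11). BALB's leading rise was the Cish region described above. With library totals, the p-values of these 4 strains rest on a spread pooled over regions. All 4 rises also passed under median-ratio scaling, at larger limma adjusted p. These were 0.0120 for C130074G19Rik, 0.0174 for Tmem17, 0.0164 for March10 and 0.00463 for Cish. The leading falls were near Nr4a1, an orphan nuclear receptor gene, in C57 (53.9 and 93.6 to 9.29 and 22.7 tags), at Limd2 in NOD (29.1 and 68.8 to 11.3 and 12.7) and at Cx3cr1 in PWK. None of these 3 falls passed under median-ratio scaling in its own strain (limma adjusted p of 0.178 for Nr4a1, 0.182 for Limd2 and 0.0571 for Cx3cr1).

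Genes of alternative activation had more rises than the matched regions as a whole. Of the 84 regions nearest to 23 genes of that list, 6 rose (7.14%, against 1.76% of all), 0 fell under both scalings and 31 fell with library totals alone (36.9%, against 72.2% of all). With median-ratio scaling 26 rose (31%, against 5.23%), and the median change was +0.27 against −0.017. A region 11.2 kb upstream of Slc7a2, the cationic amino acid transporter that takes up arginine, rose by 0.92 ± 0.20 (SE). The start of Atp6v0d2, a subunit of the vacuolar proton pump, rose by 0.73 ± 0.19. Rises were also called at Matk, Tgm2 and a second Atp6v0d2 region. The regions nearest to Arg1, the arginase that marks alternative activation, did not pass with library totals (the 2 highest changes were 0.21 and 0.20), and with median-ratio scaling those 2 of its 4 regions were at +0.70 and passed. Likewise 3 regions upstream of Ccl17, a chemokine gene, were at 0.38, 0.14 and −0.043 with library totals, and at +0.88, +0.64 and +0.47 with median-ratio scaling, where they passed. Arg1 and Ccl17 were named after their values were seen. The 2 largest falls of the list with library totals, both near Alox15, were at −0.76 and −0.76, and neither passed with median-ratio scaling.

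The IL-4 receptor and JAK-STAT list had 103 regions at 18 genes, of which 6 rose (5.83%, against 1.76% of all), 1 fell under both scalings (0.971%, against 0.923% of all) and 70 fell with library totals (68%, against 72.2%). Its rises were the pair at Cish, the 3 at Socs1 and a region 12.1 kb upstream of Jak2, at +0.92. Its second largest fall was near Socs3 (−0.85), which did not pass with median-ratio scaling. All 5 regions nearest to Il4ra, the receptor chain that binds IL-4, had changes between −0.075 and +0.065 with median-ratio scaling and were not called there (Il4ra was named after its values were seen). The list of transcription factors of the IL-4 response had 177 regions at 21 genes. Of these 4 rose (2.26%, against 1.76% of all), at Klf4, Nab1 (a pair of regions, leading change 1.15) and Batf. Under both scalings 11 fell (6.21%, against 0.923%). The falls of that list were mostly at gene starts, among them Klf4, Bhlhe40 (−1.38 and −1.34), Myc (−1.11 and −1.05), Batf3 (−1.05) and Egr2 (−1.02).

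Of the remaining lists, only the receptor and lipid lists held any rise, with 2 each, where 1.76% of all matched regions rose. Lineage factors had 141 regions, with 0 rises and 5 falls under both scalings (3.55%, against 0.923% of all), led by a region 152 kb from Maf (−1.14) with the start of Cebpa next. Inflammatory and NF-kB genes had 109 regions, with 0 rises and 1 fall (0.917%, near the 0.923% of all). That fall was in Tlr2, a receptor for bacterial lipoproteins (−0.99). The median change of this list with median-ratio scaling was +0.023. Interferon-stimulated genes had 26 regions, with 0 rises and 0 falls under both scalings, 23 falls with library totals (88.5%, against 72.2% of all) and a median of −0.098 with median-ratio scaling. Chemokine and Fc receptors had 47 regions, with 2 rises (4.26%, against 1.76% of all), near Cxcr4 (+0.61) and in Fcgr2b, the inhibitory Fc receptor (+0.53), and 2 falls (4.26%, against 0.923%), at Cx3cr1 and C5ar1 (−0.94). Lipid handling genes had 82 regions, with 2 rises (2.44%, near the 1.76% of all), led by Cpt1a, which carries fatty acids into mitochondria (+0.69). They had 1 fall (1.22%, against 0.923% of all), in Abcg1 (−0.91). Macrophage markers had 50 regions, with 0 rises and 2 falls (4%, against 0.923% of all), among them Mpeg1 (−0.85). With median-ratio scaling the changes were −0.64 for Maf, −0.48 for Tlr2, −0.42 for C5ar1, −0.39 for Abcg1 and −0.34 for Mpeg1. The lists of other cell types had 0 rises and 0 falls under both scalings, in 3 regions for T cells, 2 for B cells, 6 for granulocytes, 2 for erythroid cells, 3 for fibroblasts and 0 for mast cells and basophils.

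H3K4me2 was also measured in BMDMs of Egr2 fl/fl mice, whose Egr2 alleles are floxed and intact without Cre, in libraries that took no part in the calls. That table covers only 4677 regions that gained EGR2 peaks with 24 h of IL-4, and it held 77 of the rises. Of these, 71 (92.2%) were higher after IL-4, against 39% of the 1404 matched regions in the table, and the median change was +0.79 against −0.076. With median-ratio scaling it was 88.3% against 23.8%. The Anks1 region went from 15.3 and 8.17 to 50.5 and 93.6 tags there, and the Cish region from 28.8 and 13.8 to 66.6 and 54.2. Of the 5 falls in that table, 0 were higher.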

How the data were processed

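The authors mapped the reads with Bowtie2 and counted tags with HOMER in mm10 coordinates, in windows 1000 bp wide around reproducible ATAC-seq peaks of each strain. The deposited values are signal, that is, tags scaled by the authors to 10000000 tags per library. Columns with whole reads recovered (tolerance 0.1; 100% of 5395832 values) gave the counts used for edgeR and DESeq2, and 4 columns of the Egr2 genotype table that match no sample were not used. The factor peak lists deposited by the authors carry a score per peak from their reproducibility filter on replicates, and only their positions were used, by overlap with each region.

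Values were tested as log2(normalized tags + 1) with limma 3.58.1 (trended empirical Bayes, Benjamini-Hochberg adjusted p under 0.05 over all regions) in R 4.3.3, within each strain and, at matched regions, as the mean of the 5 within-strain changes over 10 strain-by-condition groups. Each change is a difference within 1 table. The tables were normalized separately, so levels were not compared between them. Errors are standard errors of the fit. An F test asked whether the within-strain changes differ. Other settings tried were the recovered reads in edgeR 4.0.16 (quasi-likelihood) or DESeq2 1.42.0, a pseudocount of 5, a filter at a mean of 16 tags, matching within 100 bp, median-ratio scaling, a replicate block and leaving out each library. Quantile normalization, a robust empirical Bayes fit and leaving out each strain were added after seeing the data. Intervals for counting error were not computed. The fits were also run on simulated data, in which libraries of a strain had no general difference in the share of tags in regions. That simulation therefore does not test the choice of scaling.

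The tables name no gene, so a region was given the gene of the nearest protein-coding transcript start in the mm10 annotation, and a region can act on another gene. The named genes are the 12 largest rises and 8 largest falls called with 1 direction in all 5 strains under both scalings (at most 1 region per gene and direction), the leading non-overlapping call of each strain and direction, and the 2 largest calls in each direction per list. A few genes that this rule takes are not reported here. The members, rules and gene lists were chosen with earlier results of these data known. Replicate pairs differed by more than counting noise (chi-square per degree of freedom 2.05 to 4.69) and had log2 correlations across regions of 0.871 to 0.936, so each library was counted once. Where nothing ties replicates to animals, p-values rest on the spread between these libraries, which may be technical. With library totals, limma pooled that spread over regions of like level in every H3K4me2 fit but that of SPRET alone. A region's own spread then had no weight in its p-value.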

Additional observations from a re-analysis of the deposited data

How the results depend on the processing

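The 519 rises over 5 strains became 1309 with DESeq2, 334 with the filter on low values, 1541 with median-ratio scaling and 865 after quantile normalization, and 432 to 645 when single libraries were left out, with 404 to 496 of the 519 among them. The 21262 falls became 146 with DESeq2, 272 with median-ratio scaling, 190 after quantile normalization and 13748 without the C57 libraries, and 18013 to 24274 when single libraries were left out. The 272 falls called under both scalings became 1252 with the replicate block, 108, 72 and 113 without the BALB, C57 and NOD libraries, and 150 to 290 without single libraries. Of the 272 themselves, 71 were kept without the C57 libraries, and 141 to 219 without single libraries. Strain by IL-4 calls were 1 with the replicate block, 3 without the BALB libraries and 0 to 18 without single libraries. Regions up in all 5 strains numbered 484 with no filter, 2891 with median-ratio scaling and 162 to 355 without single libraries (186 without BALB IL-4 replicate 1 and 162 without SPRET basal replicate 1). Regions down in all 5 numbered 2818 with median-ratio scaling and 15008 to 20906 without single libraries. The 71 rises that were higher in Egr2 fl/fl cells were 66 to 75 without single libraries. The cause of these shifts was not tested.

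Within strains, calls in C57 were 101 with edgeR, 64 with the filter, 278 with median-ratio scaling, 6 after quantile normalization, 376 with the replicate block and 0 to 34948 without single libraries. In BALB they were 38 with DESeq2, 1 with the filter, 175 with median-ratio scaling, 0 after quantile normalization, 18 with the block, 1 with the robust fit and 7 to 28155 without single libraries. In NOD they were 8 with DESeq2, 43 with the filter, 23 with median-ratio scaling, 8 after quantile normalization, 335 with the block and 0 to 15289 without single libraries. In PWK they were 48 with DESeq2, 75 with the filter, 17 with median-ratio scaling, 0 after quantile normalization, 996 with the block and 0 to 282 without single libraries. In SPRET they were 4 with DESeq2, 4 with edgeR, 3 with the filter, 16722 with the block, 15 with the robust fit and 63 to 6543 without single libraries. No label says what a shared replicate number stands for. Same-numbered libraries deviated together with correlations of 0.0793 to 0.364 across regions, over 0.1 in 4 of 5 strains.

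Of 1762 alternative values for 57 named or listed regions, 1665 kept their direction and side of the threshold, 91 kept only their direction and 6 changed sign. The sign changes were at 3 regions of other cell types' genes called lower with library totals: Elane (0.066 with DESeq2, 0.055 with median-ratio scaling, 0.083 after quantile normalization), Ltf (0.053 and 0.073 with the first 2) and Klf1 (0.097 after quantile normalization). Depth limits single values most at the weakest regions, which held as few as 1.68 tags on average over the 20 libraries, and the smallest change detectable there was not tested.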

Other observations

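Tags on mitochondrial DNA followed the replicate number in basal libraries. Summed over the 5 matched mitochondrial regions, basal replicate 1 held 622 normalized tags in C57, 1209 in BALB, 2963 in NOD, 302 in PWK and 997 in SPRET. Basal replicate 2 held 35.2, 114, 119, 63.6 and 20.2 in the same order, so it was the lower one in 5 of 5 strains and the lowest of the 4 libraries in each. The IL-4 libraries ranged from 181 to 2655. The median log2 change of the 5 regions over the strains was 2.38 in H3K27ac, 2.35 in H3K4me3 and 0.46 in Pol II.

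At T cell genes, 2 of the 3 matched regions, both nearest to Cd2, a T cell adhesion receptor, were at 0.12 and 0.029 with library totals and were not called. With median-ratio scaling they were at +0.62 and +0.54 and passed (limma adjusted p = 0.00729 and 0.0109). In the list of transcription factors, a region 13.7 kb from Mitf, a factor of osteoclasts and melanocytes, fell by 1.10, and regions 34.5 and 35.2 kb from Bhlhe40 were at +0.78 and +0.81 with median-ratio scaling, opposite to the falls at its start.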
